A study of Mus musculus with 15 samples.

Results

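The genes described here are the 7 numbered insulin-like growth factor binding proteins of the mouse, Igfbp1 to Igfbp7, and Gdf15, a stress-induced cytokine that the liver can secrete. They were taken by name, and are 8 of the 37991 gene identifiers in the count table of a study of whole liver. RNA was sequenced from 15 female C57BL/6 mice in 3 groups of 5: young WT (wild type, 90 days old), old WT (wild type, 600 days old) and old KO (600 days old, with Rps6kb1, the gene of ribosomal S6 kinase 1 (S6K1), knocked out throughout the body). The mice came from heterozygous breeding and ate chow freely, and each library was 1 mouse. No young KO group was sequenced, so genotype was compared at 600 days only.

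IGF binding proteins are secreted carriers that hold IGF1 and IGF2 in blood and tissue, extend their life and limit their access to the IGF1 receptor. The liver makes most of the circulating IGF1, and hepatocytes also secrete Igfbp1, Igfbp2 and Igfbp4, whereas Igfbp3, Igfbp5, Igfbp6 and Igfbp7 are largely products of the non-parenchymal cells. Gdf15 belongs to the TGF-beta superfamily, is induced by the integrated stress response and by p53, and acts on the brainstem through the receptor Gfral and its partner Ret.

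Total counts were 21801754 to 38065359 per library, and 18440 to 19808 genes had a count. Levels are given as CPM, the counts of a gene per 1000000 counts of its library, with library sizes scaled by TMM (trimmed mean of M-values). Rps6kb1 itself lay at 38.3 CPM ± 3.14 in young WT, 38.4 CPM ± 4.21 in old WT and 17.0 CPM ± 2.23 in old KO livers (mean ± SD, n = 5 each), and every old KO library was below every WT library. Hepatocyte markers summed to 98707 to 167476 CPM per library, and none of the tested hepatocyte markers was at 0 in every library. All 8 genes passed the filter on low counts, as did 14258 genes in all.

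Among the genes are 2 neighbouring pairs. On the NCBIM37 build, Igfbp1 (ENSMUSG00000020429, chr11:7097785-7102549, + strand) and Igfbp3 (ENSMUSG00000020427, chr11:7106089-7113926, − strand) face each other tail to tail across 3539 bp. Igfbp2 (ENSMUSG00000039323, chr1:72871077-72899048, + strand) and Igfbp5 (ENSMUSG00000026185, chr1:72904506-72921458, − strand) do so across 5457 bp. Igfbp4 (ENSMUSG00000017493, chr11:98902558-98913969, + strand), Igfbp6 (ENSMUSG00000023046, chr15:101974793-101979942, + strand), Igfbp7 (ENSMUSG00000036256, chr5:77778265-77837070, − strand) and Gdf15 (ENSMUSG00000038508, chr8:73153292-73156355, − strand) stand apart. All are protein coding. Igfbp7 shares 85 bp of exon with Polr2b and AC141469.5 on the other strand. Because the strand setting of the counting is not given in the sources used here, its counts are less certain than those of the other 7 genes, which overlap no annotated gene.

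Promoter sequence is shown for 4 members that differ most in how they behaved: Igfbp1, the member that varied most between mice, Igfbp4, the member that varied least, and the neighbours Igfbp2 and Igfbp5, whose fold changes with age had opposite signs. Each is the 250 bases before the RefSeq start (RefSeq table of GRCm38.p6, matched letter for letter to NCBIM37, coordinates of NCBIM37), written 5′ to 3′ on the gene's strand. Capitals mark the motifs found in the search described after the sequences.
Igfbp1 (chr11:7097540-7097789, + strand): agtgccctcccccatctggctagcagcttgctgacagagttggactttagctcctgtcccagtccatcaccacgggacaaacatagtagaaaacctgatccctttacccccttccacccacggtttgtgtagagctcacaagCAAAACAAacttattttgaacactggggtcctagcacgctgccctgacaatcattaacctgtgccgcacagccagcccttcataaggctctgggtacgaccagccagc
Igfbp4 (chr11:98902308-98902557, + strand): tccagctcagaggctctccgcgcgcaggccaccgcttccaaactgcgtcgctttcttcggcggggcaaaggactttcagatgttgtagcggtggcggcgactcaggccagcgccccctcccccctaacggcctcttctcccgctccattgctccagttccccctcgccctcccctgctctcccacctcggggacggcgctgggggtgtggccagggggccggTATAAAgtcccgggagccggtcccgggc
Igfbp2 (chr1:72870804-72871053, + strand): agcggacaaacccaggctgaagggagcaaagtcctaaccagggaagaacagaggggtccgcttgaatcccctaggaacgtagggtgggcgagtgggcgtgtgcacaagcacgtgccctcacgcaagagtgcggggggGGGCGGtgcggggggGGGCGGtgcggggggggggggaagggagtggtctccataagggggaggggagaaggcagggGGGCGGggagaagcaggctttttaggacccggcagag
Igfbp5 (chr1:72921440-72921689, − strand): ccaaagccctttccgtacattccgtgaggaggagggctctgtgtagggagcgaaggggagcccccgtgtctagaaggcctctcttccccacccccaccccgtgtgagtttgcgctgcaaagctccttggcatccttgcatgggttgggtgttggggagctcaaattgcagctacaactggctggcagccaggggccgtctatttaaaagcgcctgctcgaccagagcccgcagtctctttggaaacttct

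Both strands were searched for CAAAACAA (the core of the insulin response element), AAACAA (a forkhead core, contained in the former), TGATGNAA (a composite site of C/EBP and ATF factors), GGGCGG (the GC box) and TATAAA (the TATA box). The Igfbp1 window held CAAAACAA at bases 108 to 101 before the start, a motif present in 2.21% of 32851 promoter windows of the same length, against 18.3% for AAACAA. The Igfbp4 window held a TATA box at bases 28 to 23 before the start, as did 12.4% of windows on either strand at any position. The Igfbp2 window, from a gene with 2 starts in the table, held 3 GC boxes, at bases 113 to 108, 98 to 93 and 37 to 32, and 32.7% of windows held at least 1. None of these letters occurred in the Igfbp5 window. The window of Igfbp7 held 4 GC boxes, that of Igfbp6 a TATA box on the opposite strand, and those of Igfbp3 and Gdf15 no match. TGATGNAA, found in 3.45% of windows, was in none of the 8. A match describes the letters only.

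Levels between the genes were compared per length, as RPKM (CPM divided by the kilobases of annotated exon). Over the 15 libraries the order was Igfbp4 (mean 493.8 RPKM), Igfbp2 (196), Igfbp1 (100.1), Igfbp7 (45.5), Igfbp3 (6.12), Igfbp5 (2.44), Gdf15 (1.70) and Igfbp6 (0.987). The 4 leading genes thus stood far above the rest. Igfbp4 exceeded Igfbp2, and Igfbp7 exceeded Igfbp3, in 15 of 15 libraries with no overlap of their ranges. The other neighbours overlapped: Igfbp2 was above Igfbp1 in 12 of 15 libraries, Igfbp1 above Igfbp7 in 12, Igfbp3 above Igfbp5 in 14, Igfbp5 above Gdf15 in 9 and Gdf15 above Igfbp6 in 11. With the longest transcript as the length, Igfbp4 still exceeded Igfbp2 in 14 of 15 libraries, but their ranges overlapped. The order of the scarce genes also depended on the group: in young WT livers Igfbp5 came last (1.00 RPKM on average), below Gdf15 (1.35) and Igfbp6 (1.09, higher than Igfbp5 in 4 of 5 libraries).

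The summed RPKM of the 7 binding proteins was 946.9 ± 146.5 in young WT, 793.1 ± 163.4 in old WT and 793.8 ± 105.6 in old KO livers (mean ± SD, n = 5 each). Igfbp4 made up 52.96% ± 7.21 of that sum in young WT, 62.1% ± 11.8 in old WT and 64.6% ± 4.78 in old KO livers. Igfbp2 made up 28.7% ± 6.87, 17.4% ± 6.56 and 21.1% ± 3.35 in the same order. The share of Igfbp1 was the most uneven, from 1.54% in old KO 4 to 28.2% in old WT 7. Igfbp3, Igfbp5 and Igfbp6 together stayed a small remainder, and in young WT livers Igfbp5 was 0.105% ± 0.0413 of the sum, against 0.353% ± 0.128 in old WT. Shares are linked to each other, so a higher share need not be a higher level.

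**Figure D1:**
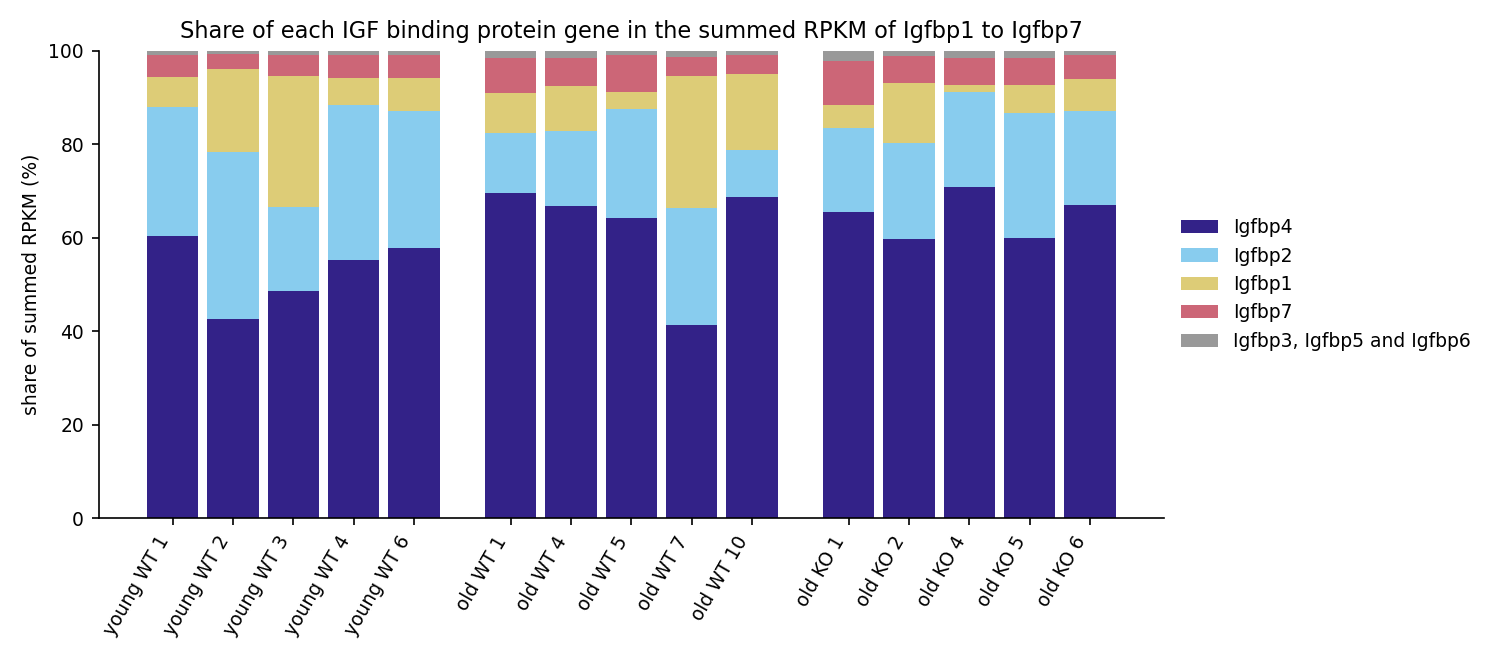
Share (percent, vertical axis) of each IGF binding protein gene in the summed RPKM of Igfbp1 to Igfbp7, as 1 stacked bar per library. Igfbp4 is the largest block in all 15 bars, while the Igfbp1 block runs from 1.54% in old KO 4 to 28.2% in old WT 7.

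Between young and old WT livers, 1 of the 8 genes passed the threshold, Igfbp5, which was higher in old livers. Igfbp2 lay below all young livers in 4 of 5 old WT livers but missed the threshold, and the other 6 did not pass. The test was the quasi-likelihood test of edgeR on all 15 libraries, contrasting old with young WT, with Benjamini-Hochberg adjustment over 14258 genes and a threshold of 0.05. Of all genes tested 18.8% passed, 9.92% as higher and 8.91% as lower, so 1 of 8 is no more than the background. The median log2 fold change of the 8 was 0.01, and that of all genes tested was 0.0080. At an unadjusted p under 0.05, 2 of the 8 were called (33.0% of all genes). DESeq2 called 1 of the 8 (18.3% of all genes) and limma voom 2 (19.3% of all genes). None of the 8 had groups free of overlap (11.4% of all genes had).

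Igfbp5 codes for a binding protein that attaches to extracellular matrix and can also join the large circulating IGF complex. It measured 4.48, 6.17, 10.8, 4.19 and 4.53 CPM in young WT 1, 2, 3, 4 and 6. In old WT 1, 4, 5, 7 and 10 it measured 21.1, 18.3, 10.5, 18.2 and 13.1 CPM. In old KO 1, 2, 4, 5 and 6 it measured 27.9, 13.98, 17.2, 41.9 and 7.01 CPM. Young WT 3 stood above the other young livers and reached the lowest old WT liver, and 4 of 5 old WT libraries were above all young ones. The group means were 6.02 ± 2.76, 16.3 ± 4.31 and 21.6 ± 13.6 CPM (SD, n = 5 each). Old WT livers held 2.70 times the Igfbp5 of young WT livers (1.43 on the log2 scale with SE 0.388 and a 95% interval of 0.61 to 2.25, edgeR adjusted p = 0.0186). The exact 2-sided permutation test of log2(CPM + 0.1), 1 of 24 such tests here and not adjusted, gave p = 0.0159, and the smallest value it allows is 0.00794. Without young WT 1 the fold change was 1.34 on the log2 scale and the adjusted p 0.0511 in edgeR, so the call did not hold there.

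In bulk tissue, fewer cells of a type cannot be told apart from less RNA per cell, and Igfbp5 is a gene of non-parenchymal cells, so the marker lists of such cells were set beside it. For mesothelial markers, genes of the liver's outer lining, the list summed to 1.84 to 4.43 CPM in young WT and 6.21 to 7.88 CPM in old WT livers, without overlap. Of its 5 tested genes 1 was called higher with age (Lrrn4), where 9.92% of all genes were called higher. Without Lrrn4, a choice made after its values were seen, the sums were 1.51 to 3.54 CPM and 1.76 to 5.32 CPM and overlapped. In old KO livers the sum of the full list, with Lrrn4, was highest in old KO 5 (11.5 CPM) and lowest in old KO 6 (2.46 CPM). These libraries had the highest and the lowest Igfbp5 of that group. The stellate and bile duct sums were also lowest in old KO 6 (289.6 and 38.9 CPM). Among young WT livers, young WT 4 was lowest in both mesothelial sum and Igfbp5. The highest sum there was in young WT 2 (4.43 CPM) and the highest Igfbp5 in young WT 3. In old WT the sum was highest in old WT 7 and lowest in old WT 10. Igfbp5 was highest in old WT 1 and lowest in old WT 5. Stellate and fibroblast markers summed to 378.6 to 493 CPM in young WT and 287 to 458 CPM in old WT livers, with 1 of 10 called higher (Col3a1) and 2 lower (Reln and Hand2), against 9.92% higher and 8.91% lower among all genes. Bile duct markers summed to 30.3 to 51.6 CPM and 39.8 to 109 CPM, with 2 of 7 tested called higher (Spp1 and Muc1, against 9.92% of all genes). Spp1 alone supplied most of these sums, on average 32.24 of 39.66 CPM in young WT and 63.65 of 74.75 CPM in old WT livers. Of the immune and endothelial lists, lymphocyte markers had 3 of 8 called higher with age (9.92% of all genes). Endothelial markers had 3 of 10 called lower (8.91% of all genes). Kupffer cell and macrophage markers had 0 of 10 called (18.8% of all genes). No marker of the lists in this paragraph was at 0 in every library. The part of these cells in the Igfbp5 difference was not tested.

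Igfbp2 codes for a circulating binding protein that the liver secretes and that rises on fasting. It measured 402, 755, 334, 598 and 439 CPM in young WT 1, 2, 3, 4 and 6. In old WT 1, 4, 5, 7 and 10 it measured 154, 210, 325, 495 and 144 CPM. In old KO 1, 2, 4, 5 and 6 it measured 220.2, 323, 283, 463 and 276 CPM. All old livers but old WT 7 and old KO 5 were below the lowest young liver, young WT 3. The means were 505 ± 169.8, 266 ± 147 and 313 ± 91.6 CPM (SD, n = 5 each). The log2 fold change of old WT against young WT was -0.93 (SE 0.319, 95% interval -1.60 to -0.25, edgeR adjusted p = 0.0522), which misses the threshold, and the exact permutation p was 0.0476, unadjusted. Old WT 7 bears on this value: without it the log2 fold change was -1.27 and the adjusted p 0.00654 in edgeR, and over all alternatives tried the adjusted p lay between 0.00186 and 0.138.

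Igfbp4, an inhibitor of IGF action, was the most even member. It measured 1126, 1152, 1162, 1275 and 1112 CPM in young WT 1, 2, 3, 4 and 6. In old WT 1, 4, 5, 7 and 10 it measured 1076, 1111, 1141, 1048 and 1267 CPM. In old KO 1, 2, 4, 5 and 6 it measured 1033, 1214, 1271, 1326 and 1178 CPM. The 3 groups overlapped throughout. The log2 fold change with age was -0.05 (SE 0.0867), and its 95% interval of -0.23 to 0.14 leaves room for small differences only.

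Igfbp1 codes for the binding protein that insulin represses in hepatocytes within hours. It measured 78.0, 309.6, 434.5, 85.3 and 89.0 CPM in young WT 1, 2, 3, 4 and 6. In old WT 1, 4, 5, 7 and 10 it measured 86.9, 105, 41.9, 461 and 194 CPM. In old KO 1, 2, 4, 5 and 6 it measured 51.8, 170.4, 17.8, 85.7 and 79.1 CPM. Young WT 2, young WT 3 and old WT 7 stood high and the remaining libraries of all groups were mixed. The highest library of a group was 5.57 times the lowest in young WT, 11.02 times in old WT and 9.57 times in old KO livers. The log2 fold change with age was -0.17 (SE 0.658, edgeR adjusted p = 0.886), and its 95% interval of -1.56 to 1.23 covers more than a halving and a doubling.

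The remaining binding proteins are made mostly outside hepatocytes. Igfbp3, the main partner of IGF1 in the circulating complex, lay at 15.7 to 21.4 CPM in young WT, 12.4 to 29.1 CPM in old WT and 17.9 to 26.3 CPM in old KO livers, with medians of 17.3, 17.1 and 20.4 CPM. Igfbp7, which binds IGFs weakly and is found around vessels, lay at 44.0 to 59.0, 39.4 to 72.1 and 45.4 to 75.5 CPM, with medians of 48.5, 54.6 and 59.5 CPM. Igfbp6, which prefers IGF2, was the scarcest at 0.783 to 1.63, 0.294 to 1.14 and 0.418 to 1.80 CPM, with medians of 1.29, 0.937 and 1.72 CPM. All 3 overlapped between all groups. Their log2 fold changes with age were 0.07 (SE 0.191) for Igfbp3, 0.14 (SE 0.153) for Igfbp7 and -0.63 (SE 0.389) for Igfbp6, with edgeR adjusted p-values of 0.820, 0.567 and 0.275. Endothelial markers, the cells in which Igfbp7 is best known, summed to 273 to 444 CPM in young WT and 203 to 342 CPM in old WT livers, with 3 of 10 called lower (8.91% of all genes), and their part in the Igfbp7 values was not tested.

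Gdf15 was low in all livers. It measured 3.37, 3.85, 2.44, 0.964 and 1.90 CPM in young WT 1, 2, 3, 4 and 6. In old WT 1, 4, 5, 7 and 10 it measured 6.47, 1.88, 3.58, 2.90 and 4.15 CPM. In old KO 1, 2, 4, 5 and 6 it measured 2.81, 2.36, 3.98, 2.73 and 3.94 CPM. Old WT 1, old WT 10, old KO 4 and old KO 6 were above all young livers, and the remaining old livers lay within the young range. The log2 fold change with age was 0.60 (SE 0.337, 95% interval -0.12 to 1.31, edgeR adjusted p = 0.231, exact permutation p = 0.222), an interval that spans both a small fall and a rise beyond 2-fold.

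**Figure D2:**
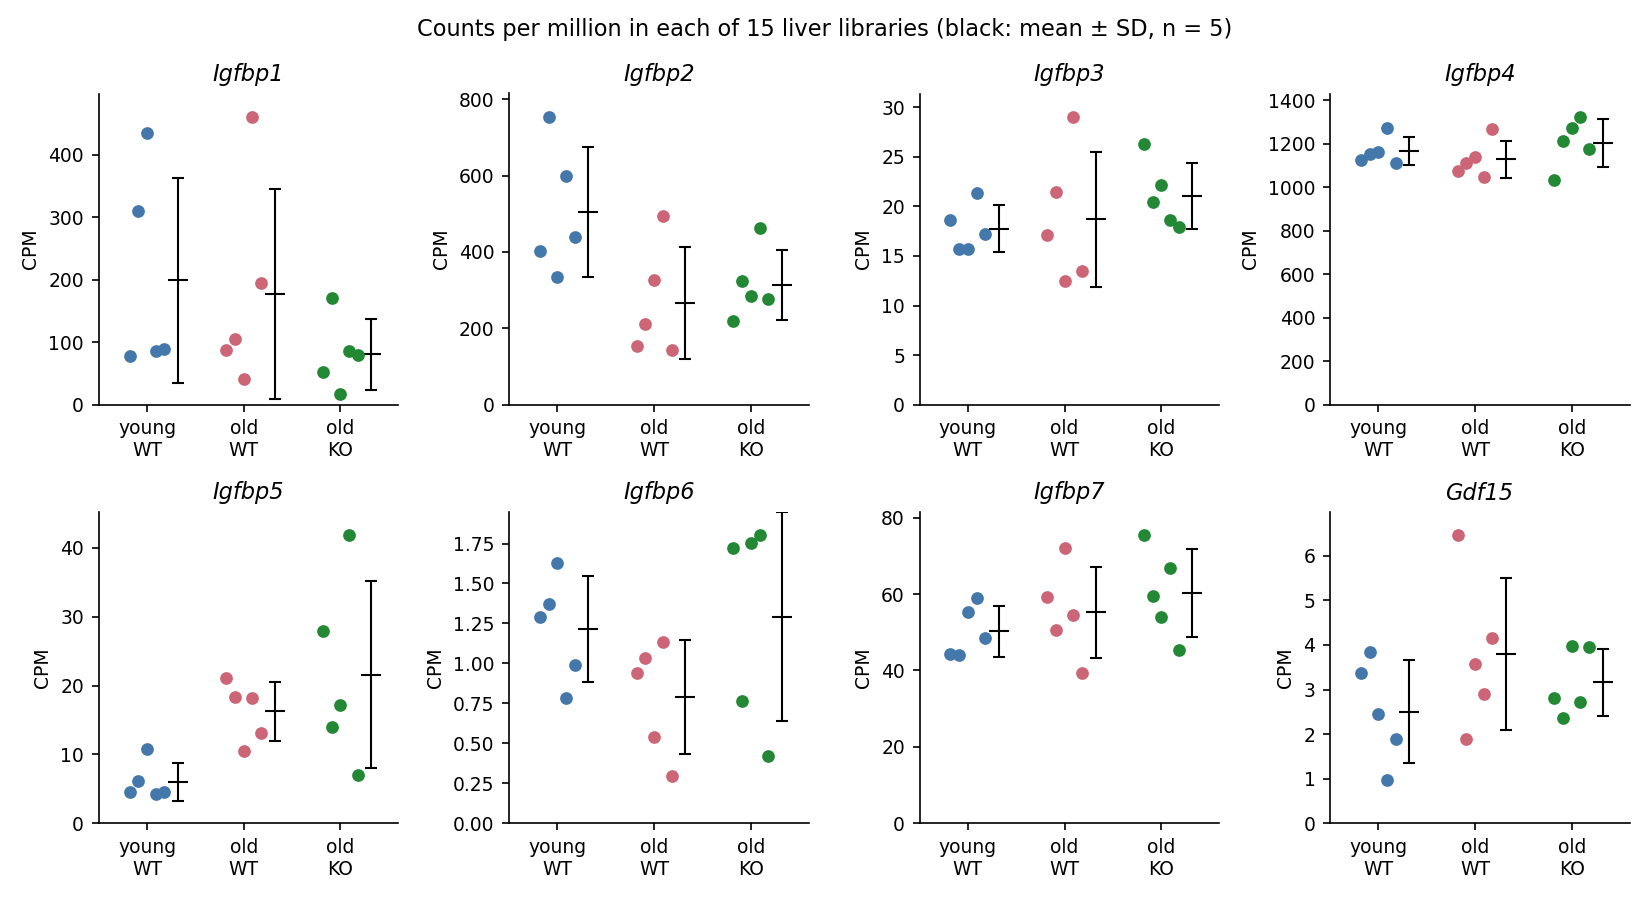
CPM (vertical axis, linear, from 0) of each gene in every library, 1 panel per gene, with 1 point per library in young WT, old WT and old KO livers and the mean ± SD (n = 5) in black. The Igfbp5 mean is lowest in young WT (6.02 CPM against 16.3 and 21.6), although young WT 3 lies above old WT 5 and old KO 6. Igfbp4 points lie close together in all groups, and Igfbp1 points spread from 17.8 to 461 CPM.

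Loss of S6K1 in old livers was examined by comparing old KO with old WT. None of the 8 genes passed the threshold in edgeR, where 0.533% of all genes did. At an unadjusted p under 0.05 the count was also 0 of 8 (11.6% of all genes), and DESeq2 (1.94% of all genes) and limma voom (0.161% of all genes) called 0 of 8. None of the 8 had groups free of overlap (3.20% of all genes had). The median log2 fold change of the 8 was 0.15, and that of all genes tested was 0.00080. The intervals show what the design could and could not see: for Igfbp4 the log2 fold change was 0.09 (95% interval -0.09 to 0.28), for Igfbp7 0.13 (-0.20 to 0.45) and for Igfbp3 0.17 (-0.23 to 0.58).

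The wide intervals belonged to the variable members. Igfbp1 averaged 81.0 ± 56.7 CPM in old KO against 178 ± 168 CPM in old WT livers (SD, n = 5 each), which is -1.13 on the log2 scale (SE 0.667, 95% interval -2.55 to 0.28, edgeR adjusted p = 0.539, exact permutation p = 0.230). Old WT 7 carries much of that difference, and without it the log2 fold change was -0.41. Igfbp5 had a log2 fold change of 0.41 (95% interval -0.38 to 1.201, edgeR adjusted p = 0.739), with old KO 5 and old KO 1 above and old KO 6 below all old WT livers. Igfbp6 had 0.72 (95% interval -0.12 to 1.55, edgeR adjusted p = 0.510), with old KO 1, 4 and 5 at 1.72 to 1.80 CPM above all old WT livers. Igfbp2 had 0.24 (95% interval -0.43 to 0.91, edgeR adjusted p = 0.837), and Gdf15 -0.27 (95% interval -0.98 to 0.44, edgeR adjusted p = 0.825). Of Kupffer cell and macrophage markers 6 of 10 were called lower in old KO livers (0.421% of all genes), with sums of 249 to 604 CPM in old WT against 145 to 214 CPM in old KO livers, and no other marker list held a called gene. Lymphocyte markers, with 0 of 8 called, had a median log2 fold change of -0.73 and sums of 22.8 to 39.2 CPM in old WT against 10.8 to 25.5 CPM in old KO livers. The part of both cell types in the values of the 8 genes was not tested.

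Old KO livers were also set against young WT livers, which differ in both age and genotype. This comparison takes its young WT libraries from the comparison of age and its old KO libraries from that of genotype, and those share the old WT libraries, so the 3 are not independent. Igfbp5 in old KO livers was at 3.59 times its young WT level (1.84 on the log2 scale, SE 0.390, 95% interval 1.02 to 2.67, edgeR adjusted p = 0.00377, exact permutation p = 0.0159), and 4 of 5 old KO libraries were above all young ones. It was again the 1 gene of 8 that passed, against 23.3% of all genes, and DESeq2 (22.3%) and limma voom (22.9%) also called 1 of 8. Igfbp2 had a log2 fold change of -0.69 (SE 0.317, 95% interval -1.36 to -0.02, edgeR adjusted p = 0.126, exact permutation p = 0.0476), with 4 of 5 old KO libraries below all young ones. The other 6 had adjusted p-values between 0.172 (Igfbp1) and 0.885 (Igfbp6) in edgeR. No gene of the 8 had groups free of overlap (13.9% of all genes had).

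**Figure D3:**
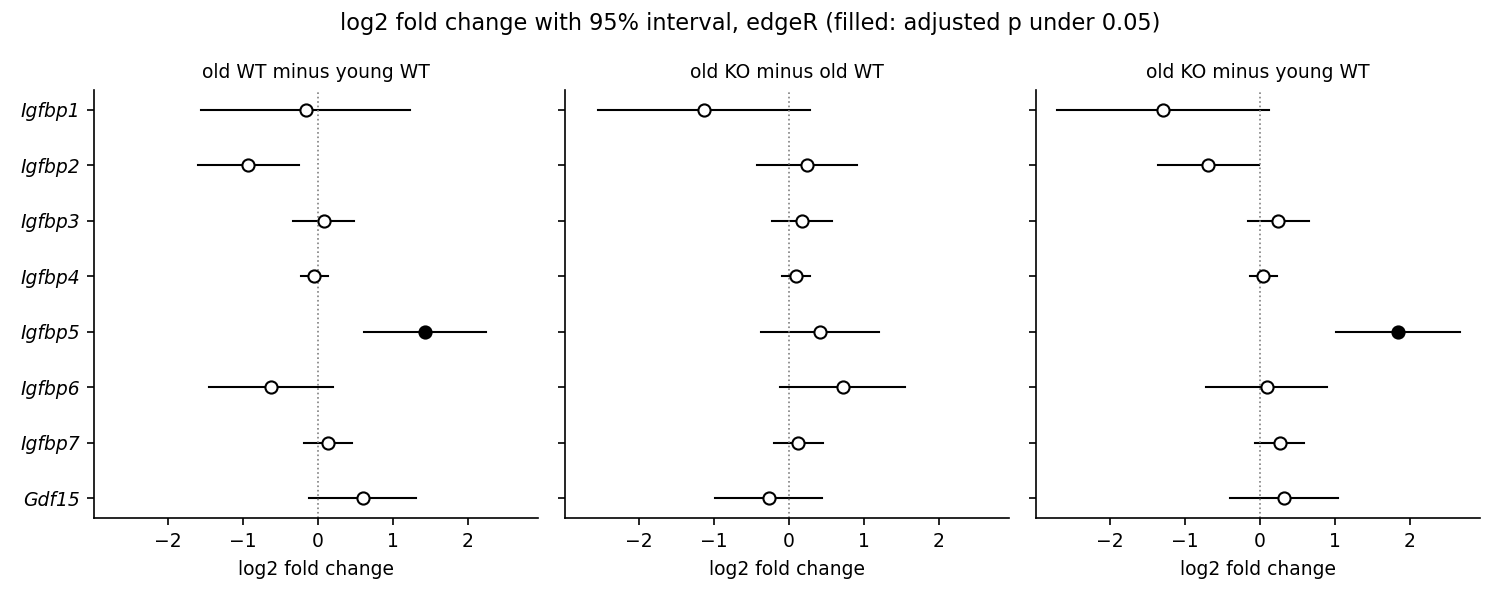
Log2 fold change (horizontal axis) of the 8 genes in the 3 comparisons, each with its 95% interval from edgeR, and filled points for an adjusted p under 0.05. Igfbp5 is filled against young WT in both old groups (1.43 and 1.84), no point is filled for old KO minus old WT, and Igfbp1 has the widest intervals.

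How much mice of 1 group differed varied strongly along the family. The within-group SD of log2 CPM was 1.23 for Igfbp1, above that of 99.7% of 12125 genes with a mean of at least 1 CPM. It was 0.70 for Igfbp6 (97.4%), 0.69 for Igfbp5 (97.3%), 0.61 for Gdf15 (95.8%) and 0.56 for Igfbp2 (94.6%). Igfbp3 and Igfbp7 took middle places with 0.33 and 0.27, and Igfbp4 had 0.11, above only 10.4% of these genes. Counting error weighs more on the scarce Igfbp6 and Gdf15 than on the rest.

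The genes whose log2 CPM followed a member most closely over the 15 libraries were ranked by Pearson's r, given here as a description without a test. The libraries share their depth scaling and their groups, so r is also given with group means subtracted. Igfbp1 was followed by G6pc, the catalytic subunit of glucose-6-phosphatase, which releases glucose from the liver (r = 0.942 over 15 libraries, 0.947 with group means subtracted). Plk3, a stress-responsive polo-like kinase (0.940 and 0.933), and Zfp281, a zinc finger transcription factor (0.891 and 0.911), came next. G6pc was 866 CPM in young WT 3 and 1090 CPM in old WT 7, where Igfbp1 was highest, and 232 CPM in old KO 4, where Igfbp1 was lowest. The 3 genes were also the first 3 by Spearman's rho, in another order. Within the list of insulin and FOXO targets, r with Igfbp1 after subtraction of group means was 0.824 for Pck1 (the gluconeogenic enzyme PEPCK), 0.743 for Irs2 (an insulin receptor substrate), 0.728 for Trib1 and -0.37 for Irs1, with a median of 0.43 over its 10 genes. The integrated stress response list was as close, with a median of 0.45 over 13 genes. There r was 0.825 for Ppp1r15a, 0.813 for Trib3 and 0.749 for Atf3, but -0.10 for Fgf21 and -0.63 for Vldlr. Medians were 0.01 over 8 genes of growth hormone signalling (from -0.71 to 0.67) and -0.12 over 10 p53 targets (from -0.37 to 0.62).

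Igfbp5 was followed by Sulf1, a sulfatase that trims extracellular heparan sulfate (r = 0.946, and 0.930 with group means subtracted), and by BC024139 (0.914 and 0.814). Sulf1 ran from 0.290 CPM in young WT 1 to 4.32 CPM in old KO 5. Igfbp2 was followed by Prkar1a, a regulatory subunit of protein kinase A (0.884 and 0.805), C8b, a complement component (0.869 and 0.768), and Apoa1, the main apolipoprotein of HDL and a hepatocyte marker here (0.845 and 0.762). C8b was 94.3 CPM on average in young WT and 33.6 CPM in old WT livers. Old WT 7 and old KO 5, with the highest Igfbp2 of the old livers, also had the highest C8b of the old livers, at 98.6 and 121 CPM. Their hepatocyte marker sums were the highest of all 15 libraries (157863 and 167476 CPM). Young WT 6 had the lowest sum (98707 CPM), and its Igfbp2 (439 CPM) was above all old livers but those. Alb supplied most of these sums, so they largely follow 1 gene. It averaged 89856, 85111 and 98460 CPM in young WT, old WT and old KO livers, of mean sums of 136170, 122216 and 141553 CPM. Of 9 tested hepatocyte markers, 2 were called lower with age (Cps1 and Apoa1, against 8.91% of all genes). The part of hepatocytes in the Igfbp2 values was not tested.

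**Figure D4:**
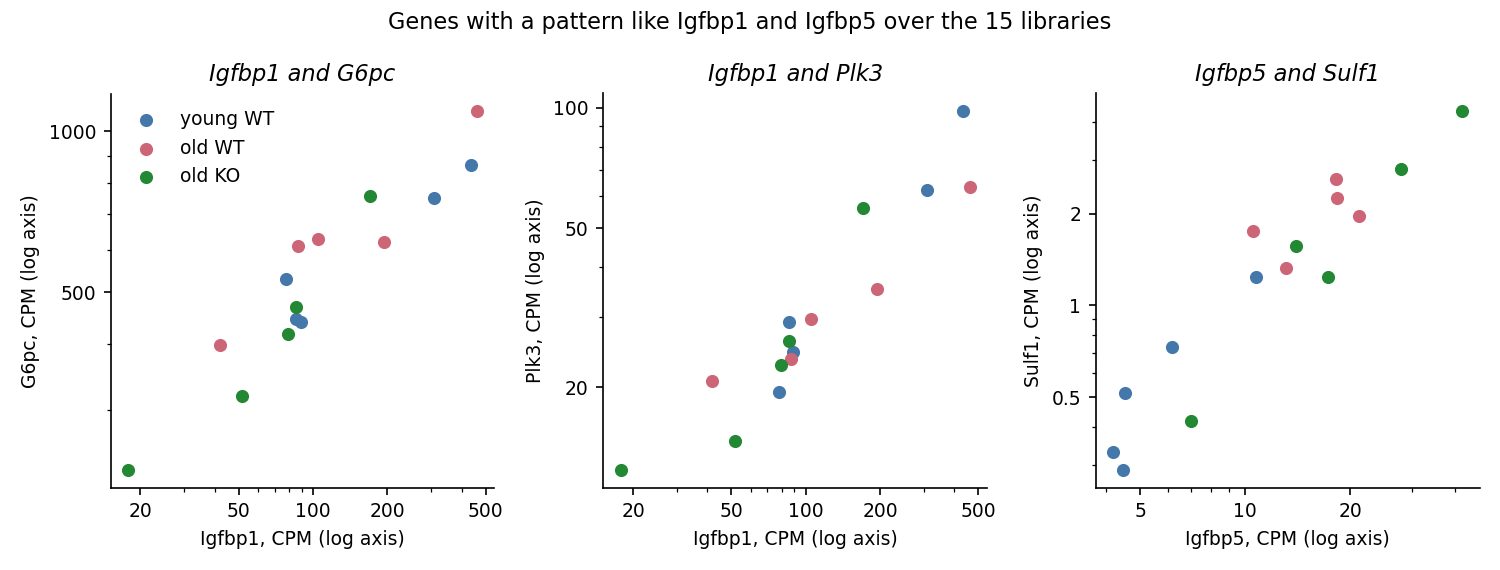
CPM of G6pc and Plk3 against Igfbp1, and of Sulf1 against Igfbp5, on log axes, with 1 point per library coloured by group. In each panel the points of the 3 groups share 1 rising trend, with r of 0.942, 0.940 and 0.946 over 15 libraries.

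The remaining members were ranked in the same way, with r over 15 libraries given first and r with group means subtracted second. Igfbp7 was followed by Ptrf, a coat protein of caveolae (0.884 and 0.870), Arhgef19 (0.877 and 0.875) and Serpinh1, the collagen chaperone (0.875 and 0.901). Igfbp6 was followed by D8Ertd82e (0.849 and 0.844), BC048644 (0.840 and 0.803) and Antxr1 (0.839 and 0.851). For Igfbp4 the genes were 2210408F21Rik (0.835 and 0.848), Rnf169 (0.825 and 0.840) and Cdc26 (0.784 and 0.786). Gdf15 was followed by 2410004N09Rik (0.848 and 0.824), Xrcc6bp1 (0.841 and 0.852) and 1700021K19Rik (0.814 and 0.766). For Igfbp3 they were Fv1 (0.813 and 0.805), Ankhd1 (0.803 and 0.853) and Arfgap2 (0.777 and 0.759). Picking the highest of 12125 genes over 15 libraries favours a high r, whatever the genes. Only 8 of the 24 genes ranked in the first 3 of the 8 members were also among the first 3 by Spearman's rho. By rho, 1700021K19Rik ranked 382 for Gdf15 (rho = 0.55) and Ankhd1 ranked 32 for Igfbp3 (rho = 0.65). Between members, Igfbp5 and Igfbp6 had r = 0.302 over the 15 libraries and 0.803 with group means subtracted. The neighbours Igfbp2 and Igfbp5 had -0.44 and 0.0086, and the neighbours Igfbp1 and Igfbp3 -0.03 and 0.14.

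Of 21 other genes of the IGF and GDF15 pathways, 14 passed the filter. With age 3 of the 14 were called in edgeR, 2 higher and 1 lower (18.8% of all genes), and the median log2 fold change was 0.13. DESeq2 called 3 of the 14 (18.3% of all genes) and limma voom 2 (19.3% of all genes). Igfals, the acid-labile subunit that completes the circulating IGF complex, was 59.9 ± 13.3 CPM in young WT and 94.7 ± 14.8 CPM in old WT livers (SD, n = 5 each), higher by 0.66 on the log2 scale (SE 0.140, edgeR adjusted p = 0.00506). Esm1, an endothelial proteoglycan with a domain like that of the binding proteins, was 0.378 ± 0.0845 and 2.83 ± 2.31 CPM, higher by 2.88 on the log2 scale (SE 0.519, edgeR adjusted p = 0.00206). Furin, a convertase able to cleave the GDF15 precursor, was 244 ± 43.3 and 194 ± 9.25 CPM (log2 fold change -0.33, SE 0.108, edgeR adjusted p = 0.0437).

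The ligands and receptors did not pass with age. Igf1 averaged 569 ± 90.6 CPM in young WT, 599 ± 142.5 CPM in old WT and 685 ± 46.6 CPM in old KO livers, with a log2 fold change of 0.07 with age (SE 0.148, edgeR adjusted p = 0.761). Igf2, largely silent in adult mouse liver, averaged 0.30, 0.55 and 0.68 CPM in the same order, from 48, 82 and 86 counts per group. Igf1r, the IGF1 receptor, averaged 1.39, 0.89 and 0.73 CPM, from 216, 132 and 91 counts. Their log2 fold changes with age were 0.85 for Igf2 (edgeR adjusted p = 0.143) and -0.64 for Igf1r (edgeR adjusted p = 0.122). Counting error weighs on both at these levels. In old KO against young WT livers, 4 of the 14 passed (23.3% of all genes): Igf2 at 1.18 (SE 0.392, adjusted p = 0.0402), Igfals at 0.65 (SE 0.140, adjusted p = 0.00413) and Esm1 at 2.67 (SE 0.523, adjusted p = 0.00234) were higher, and Igf1r at -0.92 (SE 0.289, adjusted p = 0.0316) was lower in edgeR. In that comparison DESeq2 called 6 of the 14 (22.3% of all genes) and limma voom 4 (22.9% of all genes). Between old KO and old WT livers 0 of the 14 passed in edgeR (0.533% of all genes), with 0 at an unadjusted p under 0.05 (11.6%). There were also 0 by DESeq2 (1.94% of all genes) and 0 by limma voom (0.161% of all genes). The proteases Htra1 and Htra3 had log2 fold changes of 0.81 and 0.76 with age, with edgeR adjusted p-values of 0.101 and 0.116. Pappa, the protease that cleaves Igfbp4, was too scarce to test with 11, 23 and 21 counts over the 5 libraries of young WT, old WT and old KO, as were Pappa2, Stc1, Stc2, Igfbpl1 and Ret. Gfral had 0 counts in all 15 libraries.

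**Figure D5:**
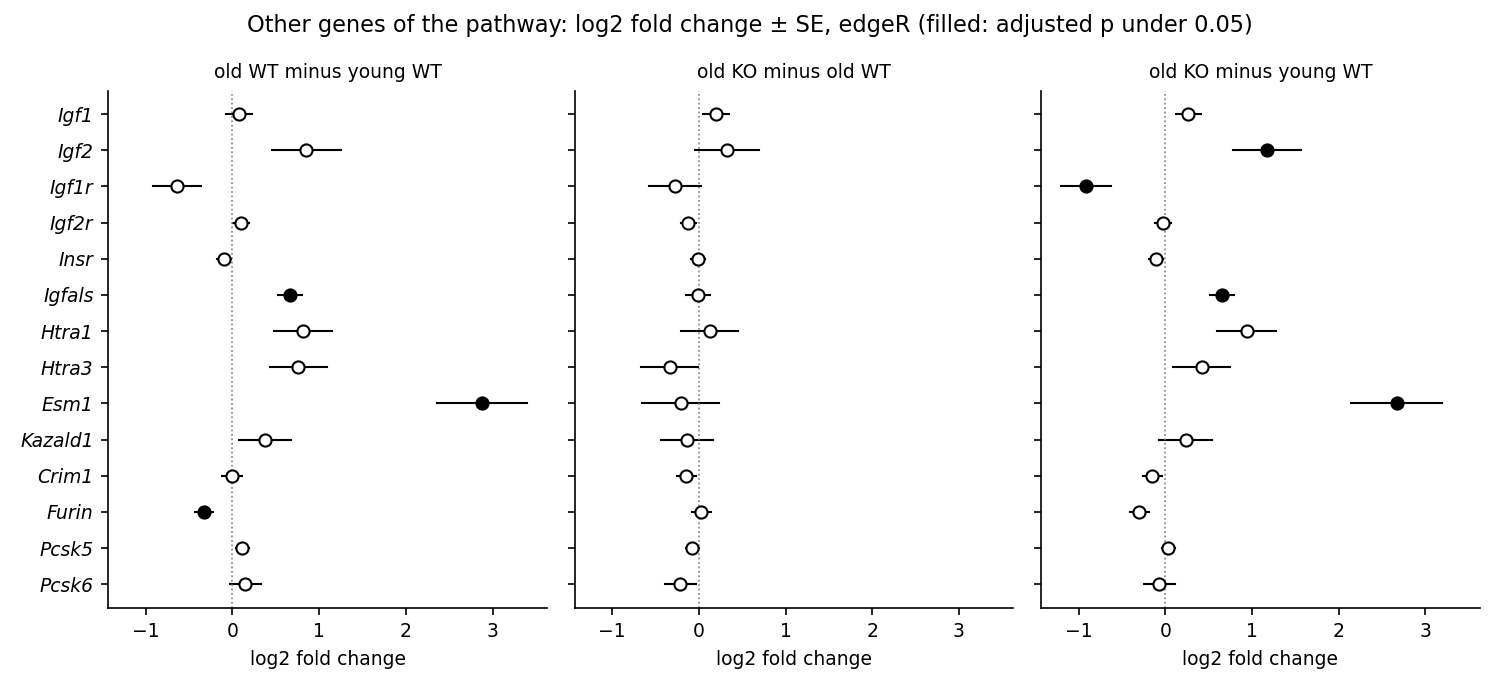
Log2 fold change ± SE (horizontal axis, edgeR) of the 14 tested pathway genes in the 3 comparisons, with filled points for an adjusted p under 0.05. Igfals, Esm1 and Furin are filled for old WT minus young WT, and no point is filled for old KO minus old WT.

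Genes that control the members, or respond with them, were described in 4 lists of 41 genes in all. With age 9 of 41 were called, 7 higher and 2 lower, which is 22.0% where 18.8% of all genes were called. Between old KO and old WT livers 0 of 41 were called in edgeR (0.533% of all genes), with 6 at an unadjusted p under 0.05 (11.6% of all genes). DESeq2 called 1 of 41 there (1.94% of all genes) and limma voom 0 (0.161% of all genes). In old KO against young WT livers 10 of 41 were called, 6 higher and 4 lower, which is 24.4% where 23.3% of all genes were called. These edgeR shares are close to the background. With age DESeq2 called 9 of 41 (18.3% of all genes) and limma voom 7 (19.3% of all genes). In old KO against young WT livers the counts were 13 by DESeq2 (22.3% of all genes) and 10 by limma voom (22.9%). Of 8 genes of growth hormone signalling, 2 were higher with age (9.92% of all genes were): Ghr, the growth hormone receptor (log2 fold change 0.81, edgeR adjusted p = 0.00618), and Stat5a, which carries its signal (0.50, edgeR adjusted p = 0.0460). Both were also higher in old KO than young WT livers (0.86 and 0.49, edgeR adjusted p = 0.00339 and 0.0414), as were Stat5b (0.32, 0.0332) and Jak2 (0.34, 0.0413), the kinase bound to the receptor. That made 4 of 8 called higher in this comparison, where 12.0% of all genes were. The list's median with age was 0.19. Of 10 insulin and FOXO targets, 1 was lower with age (8.91% of all genes were), the coactivator Ppargc1a (-0.98, edgeR adjusted p = 0.0443), and the median was -0.20. Trib1, a pseudokinase of lipid metabolism, was lower in old KO than young WT livers (-0.77, edgeR adjusted p = 0.0314). It was the 1 of 10 called lower there (11.3% of all genes were). G6pc had 0.14 with age and -0.61 between old KO and old WT livers, with edgeR adjusted p-values of 0.777 and 0.460.

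For Gdf15 the lists were those of the integrated stress response and of p53 targets. Of 13 integrated stress response genes, 2 were higher with age, the lipoprotein receptor Vldlr (1.64, edgeR adjusted p = 0.00139) and the stress protein Nupr1 (0.91, edgeR adjusted p = 0.0437), and 1 was lower, the pseudokinase Trib3 (-0.998, edgeR adjusted p = 0.0255), against 9.92% higher and 8.91% lower among all genes. The list's median was -0.08, and Atf4, its central factor, had -0.12 (edgeR adjusted p = 0.610). Of 10 p53 targets, 3 were higher with age (9.92% of all genes were): Eda2r (1.44, edgeR adjusted p = 0.00562), Ccng1 (0.42, edgeR adjusted p = 0.00662) and Phlda3 (1.15, edgeR adjusted p = 0.0112), with a median of 0.0051 for the list. Aen (-0.67, edgeR adjusted p = 0.0100) and Mdm2 (-0.37, edgeR adjusted p = 0.0101) were lower in old KO than young WT livers, 2 of 10 where 11.3% of all genes were. Over the 15 libraries with group means subtracted, r with Gdf15 ran from -0.25 (Trp53inp1) to 0.707 (Bax) over the 10 p53 targets, with a median of 0.53, and was 0.703 for Mdm2 and 0.038 for Cdkn1a. Over the 13 integrated stress response genes it ran from -0.33 (Nupr1) to 0.453 (Fgf21), with a median of 0.05, and was 0.360 for Sesn2 and 0.161 for Atf4.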

How the data were processed

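Whole livers were profiled by RNA sequencing. Per the study's methods and the submitters' processing notes, the authors prepared stranded mRNA libraries, aligned them to mm9 with TopHat2 2.0.11 and used HTSeq for the counting. The authors deposited raw counts per gene, with no normalization or pooling. The annotation and strand setting of the counting are not given in the sources used here. Groups and replicate numbers came from the sample titles.

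Counts were scaled by TMM, filtered with filterByExpr and tested in edgeR 4.0.16 (R 4.3.3) by glmQLFit and glmQLFTest on all 15 libraries, with Benjamini-Hochberg adjustment and a threshold of 0.05. Genes were positioned with GENCODE M1 on NCBIM37 (37205 of 37991 identifiers), the build also called mm9. DESeq2 1.42.0 and limma 3.58.1 (voom) were alternatives, together with other scalings, no filter, the libraries of a contrast alone, a replicate block and leaving out each library. The study's own test was DESeq2 1.18.1, without a stated design. Exact permutation tests ran over 252 assignments. The fits were tested on simulated data. At these depths counting error is small except for genes of a few CPM.

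Of 147 list entries 145 matched by symbol, 1 by synonym and 1 (Tf) did not. The rule for named genes took the 8 members, the pathway list, up to 4 called genes per regulator list and the 3 genes most alike each member, of which 1 for Igfbp5 is not reported here. The regulator genes given only for their correlation with Igfbp1 or Gdf15, G6pc and Atf4 among the lists, and the marker genes were named after their values were seen. The members and lists were chosen with earlier results of these data known.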

Additional observations from a re-analysis of the deposited data

How the results depend on the processing

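Of 528 fold changes of the 8 genes under 22 alternatives in 3 comparisons, 508 kept their direction and their side of the threshold. With age, 2 genes (Igfbp2 and Igfbp5) rather than 1 were called by limma voom and without the filter on low counts, and leaving out single libraries gave 0 to 2. Igfbp2 with age passed under limma voom (-1.03, adjusted p = 0.0325) and without the filter (-0.93, 0.0483), and ranged from -1.27 to -0.739 when single libraries were left out. Igfbp5 with age ranged from 1.31 to 1.76 without single libraries. Same-numbered libraries did not deviate together (r from -0.153 to 0.077) and are different mice, so the numbers do not pair them. With the replicate number as a block, the age count was still 1 but the gene was Igfbp2 (-1.45, adjusted p = 0.00186) and not Igfbp5 (1.36, 0.135), and against young WT the old KO count was 2, with Igfbp2 at -0.96 (0.00128). The numbers 3, 7 and 10 are shared with no other group. Under the block, young WT 3, old WT 7 and old WT 10 thus have terms of their own and do not inform the fold changes. The cause of the changed calls was not tested. Directions that reversed were all of values that passed no threshold. Igfbp3 with age was -0.13 under the block and -0.13 to 0.19 without single libraries, Igfbp1 with age -0.89 to 0.35, and Gdf15 for genotype -0.45 to 0.0077. Igfbp6 in old KO against young WT was 0.09 in the main fit, -0.0557 by limma voom and -0.0543 to 0.31 without single libraries. Its difference in the permutation test was -0.05 with a pseudocount of 0.1 and 0.0099 with a pseudocount of 1. Depth limits Igfbp6 and Gdf15, at a few CPM or less.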
